A study of Mus musculus with 18 samples.

Results

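The dura mater of mice 2 days after an experimental stroke was compared with the dura of naive mice in 3 categories of animals, to describe the transcripts that changed in the same direction in every category. All 18 arrays of the series entered the comparison, 9 from stroke and 9 from naive mice, with stroke set against naive only within a category. A probe set, the group of probes that reports 1 transcript, was called shared when the stroke difference averaged over the 3 categories passed a limma adjusted p of 0.05 and the difference had the same sign in all 3. Of 21640 probe sets with exactly 1 gene symbol, 2669 (2491 genes) met this definition, 1615 that rose (7.46%) and 1054 that fell (4.87%). The definition asks for the same sign in each category and not for a call there. Of the 2669, 220 passed in 2 or more categories by themselves and 1016 in none. In a stricter sense, 25 probe sets (0.116%), 1 each of 25 genes, passed the threshold within each category by itself.

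Every animal was a male mouse of the WBB6F1 background, 17 to 21 weeks old. Mast cell-deficient mice were WBB6F1-KitW/W-v, with 2 mutant alleles of Kit, the receptor on which mast cells depend. Engrafted mice were such deficient mice given mast cells intravenously 8 to 10 weeks before the experiment, so they keep the mutant Kit alleles in all other cells. Wild-type mice were WBB6F1-Kit+/+. In the stroke groups a filament blocked the middle cerebral artery for 30 minutes, and the dura was taken 2 days later. The naive groups were age-matched mice without stroke. Sham-operated mice were not analysed here, so anaesthesia and surgery go with stroke in each difference below. All mice were perfused with cold saline before the dura was removed, and each dura had its own array, which gives 3 mice in each of 6 groups.

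The dura is a sheet of fibroblasts and collagen that carries vessels, lymphatics, mast cells and macrophages, and it lies next to skull marrow, from which neutrophils and monocytes can enter it. Stroke sets off an acute-phase response, in which cytokines of the interleukin 6 family and STAT3 induce secreted defence proteins, and it mobilises myeloid cells from the marrow. Matrix metalloproteinases and their inhibitors, the TIMPs, remodel connective tissue in the same period.

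Values are log2 signals, which ran from 3.42 to 14.06, and the array medians lay between 7.77 and 7.91. Arrays of a group correlated with each other at r of 0.984 to 0.997 across probe sets. Ptgds, a prostaglandin synthase abundant in the meninges, was high on all 18 arrays, between 13.17 and 13.58. The mean of 15 mast cell genes, centred per gene, lay between -0.82 and -0.67 on the 6 deficient arrays, between 0.03 and 0.88 on the engrafted arrays and between 0.10 and 0.51 on the wild-type arrays. This score set the deficient arrays apart as labelled, while the engrafted and wild-type arrays overlapped and were not told apart by it. Ttr, a choroid plexus gene, was between 9.03 and 10.17 on 5 arrays and between 13.03 and 13.78 on the other 13. The 5 were stroke deficient 2, naive deficient 1 and 3, naive engrafted 3 and stroke wild type 2. Without these 5 arrays 1659 probe sets were shared, of which 1445 were among the 2669. That fit rests on 1 naive deficient array, and the part of choroid plexus tissue in the calls it lost was not tested.

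The stroke difference averaged over the categories passed for 2914 probe sets (13.5%), with 1742 higher (8.05%) and 1172 lower (5.42%) in stroke dura. The sign was the same in all 3 categories for 91.6% of these, against 37.7% of all tested probe sets (8162), a share that the averaged call itself raises. The changes were mostly small. The median averaged difference was 0.26 among the shared risers and -0.25 among the shared fallers, while 255 shared probe sets changed by 1.5-fold or more and 60 exceeded 1 on the log2 scale, 46 upward and 14 downward. Within single categories limma called 54 probe sets in deficient dura (0.250%), 241 in engrafted dura (1.11%) and 2352 in wild-type dura (10.9%). The median rise of shared risers was 0.20 in deficient, 0.23 in engrafted and 0.37 in wild-type dura, and the median difference of shared fallers was -0.20, -0.17 and -0.36. The wild-type difference was the largest of the 3 for 1923 of the 2669 shared probe sets. A moderated F test of whether the stroke difference itself differed between categories passed for 44 probe sets (0.203%), 32 of them shared.

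Because no array belongs to more than 1 category, each category can be checked against calls on the averaged difference of the other 2. Only that difference leaves the category out. The variance behind the calls came from the fit of all groups, the held-out category included. The average of deficient and engrafted dura called 649 probe sets (3.00%), and in wild-type dura 475 of the 485 risers and 158 of the 164 fallers had the same sign, 97.9% and 96.3%. Some genes entered with several probe sets, among them Fat3 and Igsf10 in the fallers. The shares thus count probe sets and not separate genes. The 2 categories other than deficient called 2220 (10.3%), and the sign held in deficient dura for 91.2% of risers and 91.1% of fallers. For engrafted dura the shares were lower, 75.6% of risers and 68.1% of fallers among 3387 calls (15.7%). Over all tested probe sets, without a call, the sign of the held-out category matched for 70.3% with wild type, 64.7% with deficient and 52.1% with engrafted dura held out, so the engrafted shares stand against the lowest background. The sizes did not carry over equally: risers with a median of 0.34 elsewhere had a median of 0.17 in deficient dura, whereas risers with a median of 0.38 elsewhere had 0.57 in wild-type dura. In engrafted dura risers with 0.26 elsewhere had 0.13, and fallers with -0.32 elsewhere had -0.06, the median nearest to 0 among the held-out sets. The medians elsewhere come from the categories on which the probe sets were called, and that selection enlarges them. Part of a smaller median in the held-out category thus comes from the call itself, and how much was not tested.

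**Figure D1:**
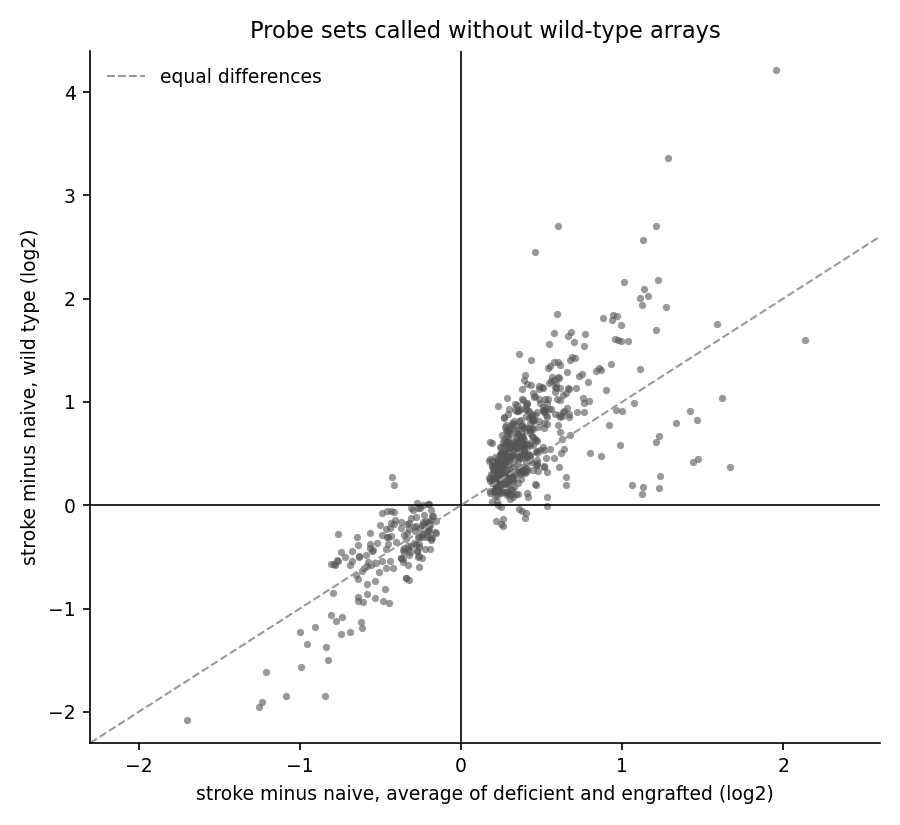
Stroke minus naive differences (log2) of the 649 probe sets called on the average of deficient and engrafted dura. That average is on the horizontal axis and the wild-type difference, from other arrays, on the vertical axis. The variance behind the calls came from the fit of all groups, wild type included. Of the 485 risers 475 lie above 0 in wild type and of the 164 fallers 158 lie below 0, and the median riser lies above the dashed line of equal differences (0.57 against 0.38).

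With no model at all, the 3 stroke arrays lay above the 3 naive arrays in every category for 401 probe sets (1.85%) and below them in every category for 148 (0.684%). Of these 549 probe sets, 542 were shared, a share that the separation itself raises, since it fixes the sign on the same arrays. The 25 genes that passed in each category are among them, 16 with higher and 9 with lower levels after stroke. Their averaged call held in all 27 alternative fits, which include the fit without the 5 arrays low in Ttr, but membership in each category depends on the deficient arrays. The count was 5 without stroke deficient array 1, 11 without stroke deficient array 3 and 12 without naive deficient array 3. It was 7 in the fit that leaves out the Ttr-poor arrays.

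**Figure D2:**
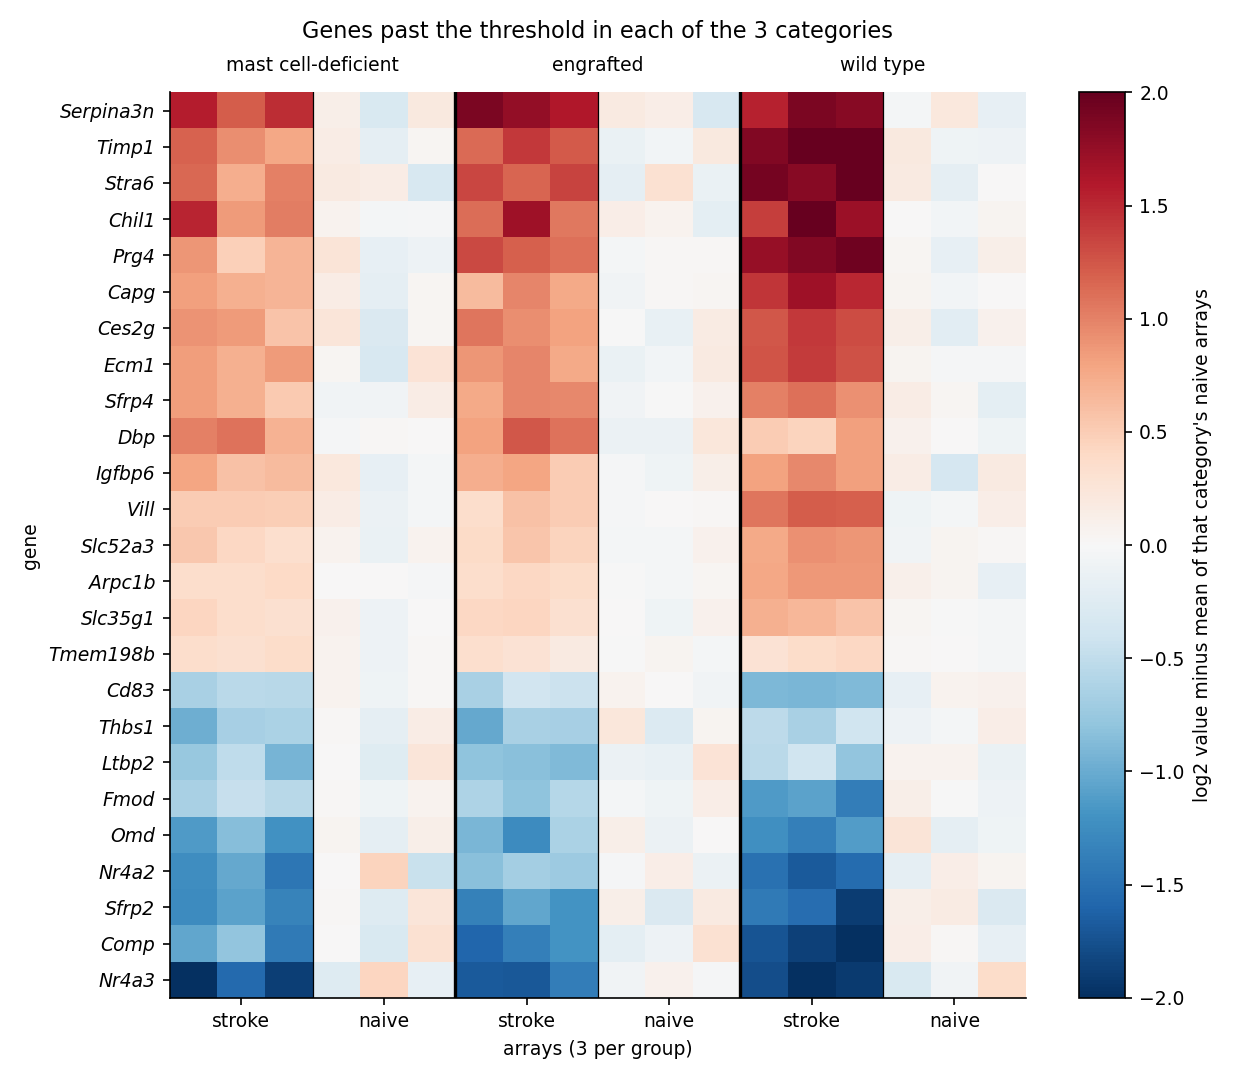
The 25 genes past the threshold in each category, in rows by averaged difference, over the 18 arrays in columns, with stroke left of naive in each category. Colour gives the log2 value minus the mean of the naive arrays of that category. In every row the 3 stroke columns of a category lie on the same side of its 3 naive columns, and the rows run from Serpina3n (1.64 on average) to Nr4a3 (-1.83).

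Secreted defence and acute-phase proteins rose without a member that fell. Of 19 measured genes of that list, 12 rose, all of them shared, and 0 fell, with a list median of 0.29 against 0.01 for all tested probe sets. On the 13 Ttr-rich arrays alone 9 rose and 6 were shared. Serpina3n, a serine protease inhibitor of the acute phase, had log2 values of 11.29, 10.94 and 11.20 in stroke and 9.84, 9.42 and 9.92 in naive deficient dura. In engrafted dura the values were 11.72, 11.59 and 11.44 after stroke and 10.02, 9.96 and 9.52 in naive mice. Wild-type dura had 11.93, 12.27 and 12.21 after stroke and 10.34, 10.59 and 10.23 in naive mice. The lowest stroke array of all, 10.94, thus lay above the highest naive array, 10.59. The averaged rise was 1.64 ± 0.09 (log2, SE; 3.12-fold; limma adjusted p = 4.12e-08), with 1.42, 1.75 and 1.75 in deficient, engrafted and wild-type dura. Saa3, a serum amyloid made in inflamed tissue, rose by 1.18 ± 0.17 (adjusted p = 0.000267), and the haemoglobin-binding protein Hp by 0.97 ± 0.13 (adjusted p = 0.000143). Lrg1, a secreted leucine-rich glycoprotein, ranged over 9.78, 10.47 and 10.86 in stroke dura and 8.58, 9.22 and 9.82 in naive dura (lowest, median and highest of 9), and rose by 1.19 ± 0.12. Its groups overlapped across categories but not within any of them. The members that did not pass were Cp, Saa1, Orm2, Reg3b, Lbp, Ptx3 and Camp, between -0.09 and 0.45.

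Lcn2, which encodes the iron-trapping lipocalin of neutrophils and inflamed tissue, was level across the deficient stroke arrays at 10.58, 10.56 and 10.59, against 9.12, 9.35 and 9.38 in naive deficient dura. In engrafted dura it had 11.21, 11.48 and 12.06 after stroke and 9.99, 9.56 and 10.57 in naive mice. Wild-type values were 11.01, 11.82 and 11.09 after stroke and 10.68, 10.07 and 10.44 in naive mice. The groups did not overlap in any category, and the averaged rise was 1.25 ± 0.15 (adjusted p = 5.63e-05). Ltf, the granule protein lactoferrin, rose by 0.79 ± 0.20 (adjusted p = 0.017), with 0.76, 1.49 and 0.11 in deficient, engrafted and wild-type dura. Reg3g, an antimicrobial lectin, rose by 1.25 ± 0.15 with most of the change in wild type (0.26, 0.62 and 2.86, adjusted p of the difference between categories 0.00878). In 5 of the 6 groups its mean was under the lower quartile of each array (6.09 to 6.23), where the signal was not shown to be above background.

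RefSeq promoter windows, 250 bases before to 50 after a gene's start, were matched to 15561 tested genes and searched on both strands for 8 motifs, where a base may belong to more than 1 motif. The letters TTGCNNAA, a form of the site bound by C/EBP factors, occurred in 9 of 16 windows of the acute-phase list (56.2%), against 9.68% of all windows, 10.9% of shared risers and 7.17% of shared fallers. The match did not separate the members: 6 of the 10 shared members with a window and 3 of the 6 other members held it. The 250 bases before the start of Lcn2 (GRCm38.p6, chr2:32387740-32387989, minus strand) and Ltf (chr9:111019042-111019291, plus strand) are shown as examples of the list, with the C/EBP match in capitals.
Lcn2: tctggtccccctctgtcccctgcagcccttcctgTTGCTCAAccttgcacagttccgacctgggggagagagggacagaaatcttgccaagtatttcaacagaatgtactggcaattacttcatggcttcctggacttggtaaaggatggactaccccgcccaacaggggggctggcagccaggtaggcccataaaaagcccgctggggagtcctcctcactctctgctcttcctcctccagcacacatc
Ltf: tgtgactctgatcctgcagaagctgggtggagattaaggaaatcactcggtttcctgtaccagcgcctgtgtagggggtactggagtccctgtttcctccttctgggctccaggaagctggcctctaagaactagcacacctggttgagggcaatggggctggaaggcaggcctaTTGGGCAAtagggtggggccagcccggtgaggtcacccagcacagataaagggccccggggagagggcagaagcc

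Genes of interleukin 6 family signalling rose in 7 of 15 cases, all shared, and 0 fell (list median 0.14). Over all tested probe sets 8.05% rose and 7.46% were shared risers. Of the 15 genes, 5 rose without the 5 arrays low in Ttr and 4 with choroid plexus and neuron covariates. A link of these genes to the acute-phase rises was not tested. Socs3, the feedback inhibitor that STAT3 induces, rose by 0.73 ± 0.07 (adjusted p = 4.51e-06), and its other probe set by 0.23 (adjusted p = 0.0453). Its rise differed between categories (0.41, 0.31 and 1.46, adjusted p = 0.00673). Osmr, the receptor of oncostatin M, rose by 0.50 ± 0.07 and Bcl3, a nuclear partner of NF-kB, by 0.53 ± 0.09. The cytokine Il6 itself had 4.86, 4.54 and 4.46 in stroke and 4.42, 4.48 and 4.52 in naive deficient dura. In engrafted dura it had 4.54, 6.25 and 4.87 after stroke and 4.45, 4.56 and 4.51 in naive mice, and in wild type 6.30, 5.14 and 8.15 after stroke and 4.44, 4.75 and 4.52 in naive mice. The averaged difference of 0.94 ± 0.31 did not pass (adjusted p = 0.0536), and every group mean except that of wild-type stroke dura was not shown to be above background by the same measure. Of 19 cytokines of the interleukin 1, 6 and TNF families 5 rose, 4 of them shared, and 0 fell, beside the same shares of all tested probe sets. Il33, an alarm cytokine of stromal cells, rose by 0.34 ± 0.07, Lif by 0.33 ± 0.07 and Il11 by 0.62 ± 0.11, the last with 0.14, 0.17 and 1.56 in deficient, engrafted and wild-type dura.

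**Figure D3:**
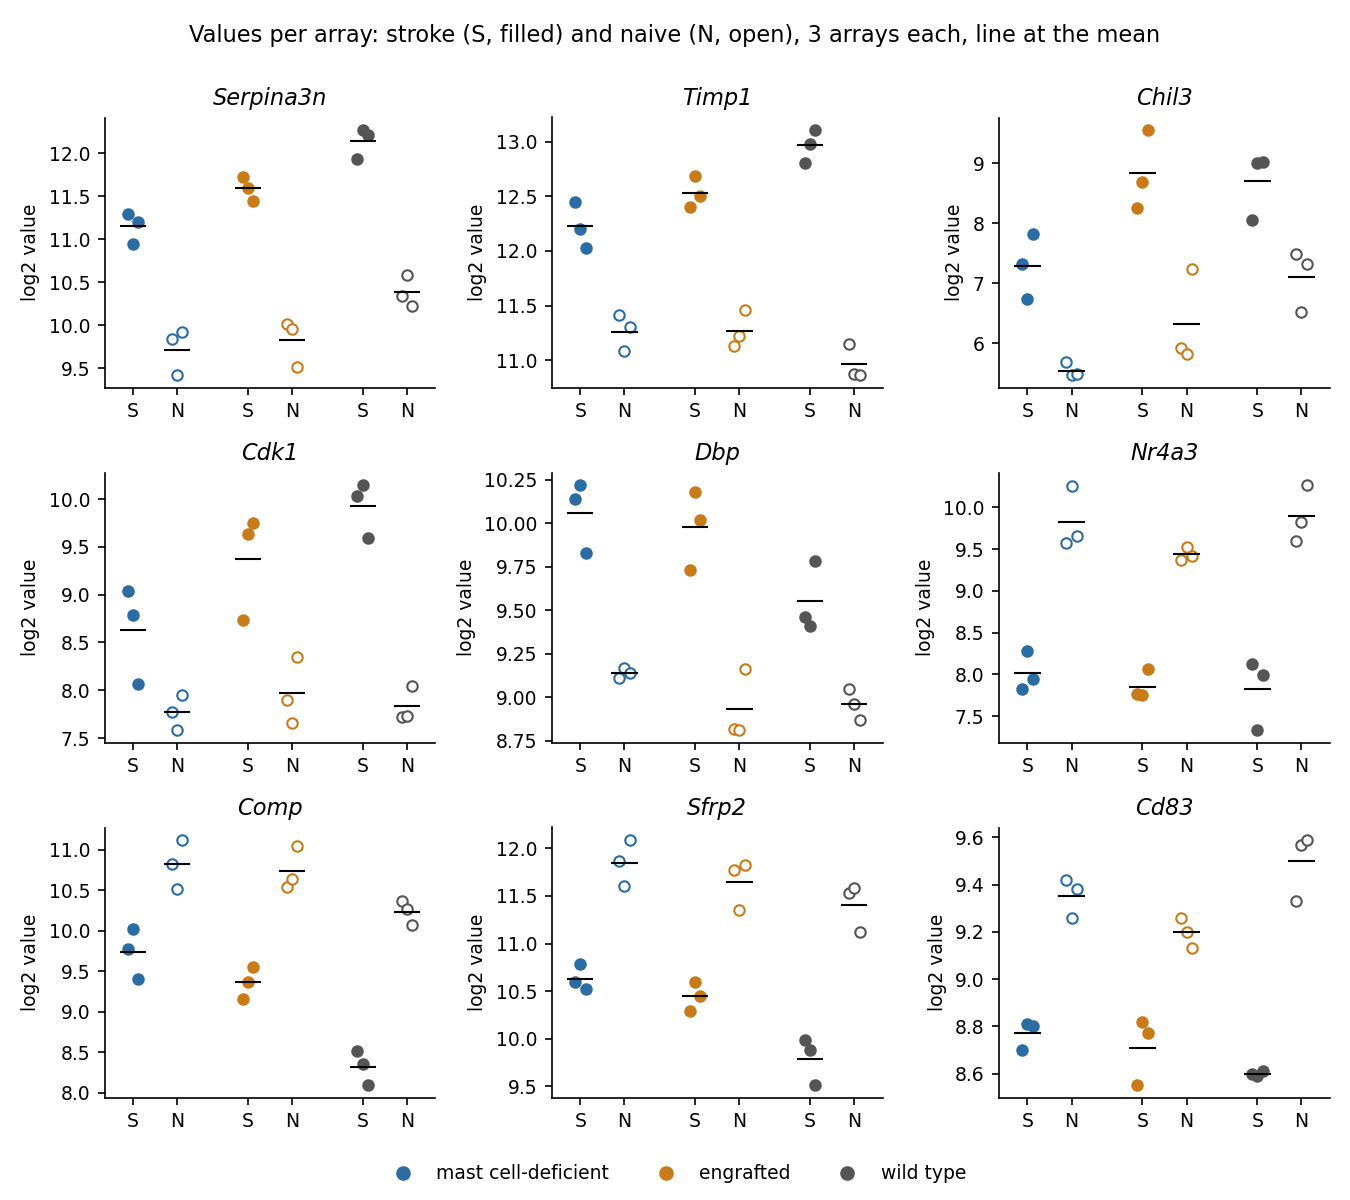
Log2 value per array for 9 genes, with filled points for stroke (S) and open points for naive (N), 3 arrays per group, a line at each mean, and deficient, engrafted and wild-type mice from left to right. For all 9 genes the 3 stroke points lie on 1 side of the 3 naive points in every category, as for Serpina3n, whose lowest stroke value of 10.94 lies above the highest naive value of 10.59.

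Genes of neutrophils and their precursors rose after stroke in the average of the categories. In the mature neutrophil list 12 of 14 measured genes were shared risers and 0 fell (list median 0.77), and in the granulocyte precursor list 9 of 11 and 0 (list median 0.88). Ly6g, a surface protein of mouse neutrophils, rose by 1.10 ± 0.20, S100a8, a calcium-binding protein of neutrophil cytosol, by 1.24 ± 0.25 and its partner S100a9 by 0.92 ± 0.22 (adjusted p = 0.00187, 0.0044 and 0.0117). These 3 rose least in wild type, where Ly6g stood at 0.41 (1.13 in deficient and 1.75 in engrafted dura), S100a8 at 0.37 and S100a9 at 0.28. Prok2 of the same list rose most in wild type (0.44, 0.76 and 2.71). List medians of the mature neutrophil genes were 0.41, 0.85 and 0.52 in deficient, engrafted and wild-type dura. Among granule proteases made in marrow precursors, Ctsg rose by 1.25 ± 0.24 and Prtn3 by 1.01 ± 0.18, and Mpo, the myeloperoxidase, by 1.15 ± 0.25. List medians of the precursor genes were 0.75 in deficient, 1.49 in engrafted and 0.47 in wild-type dura, and no member passed the F test of a difference between categories. The mean of the precursor genes, centred per gene, was -0.11, 1.01 and -0.03 on the wild-type stroke arrays and -0.12, -0.28 and -0.29 on the wild-type naive arrays. The wild-type rise thus rests mostly on stroke wild type 2, a Ttr-poor array. The mean of the 14 mature neutrophil genes, centred per gene, was -0.24, 0.40 and 0.98 in stroke dura and -0.93, -0.49 and 0.16 in naive dura (lowest, median and highest of 9), and it overlapped between them across categories. With the Ttr-poor arrays left out, 6 of 14 and 5 of 11 were shared and 10 and 7 rose on average. In bulk tissue more cells of a type and more RNA per cell cannot be told apart.

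Chil3, a chitinase-like protein of precursors and alternatively activated macrophages, showed the largest smallest-of-3 difference of any shared riser. Its values were 7.32, 6.73 and 7.82 in stroke and 5.68, 5.46 and 5.48 in naive deficient dura. Engrafted dura had 8.26, 8.69 and 9.56 after stroke and 5.91, 5.82 and 7.23 in naive mice, and wild-type dura 8.06, 9.01 and 9.02 after stroke and 7.49, 6.51 and 7.32 in naive mice. The groups were apart in each category although naive levels differed between categories, and the naive deficient mean was not shown to be above background. The averaged rise was 1.96 ± 0.24 (adjusted p = 6.55e-05). Chil1, a related chitinase-like protein, passed in each category (1.13, 1.29 and 1.69). Ifitm6, a membrane protein of the interferon-induced family, rose by 1.43 ± 0.17 and by more than 1 in every category. The list of 18 interferon-stimulated genes had 0 called members in either direction by limma and lay between -0.24 (Mx1) and 0.20 (Xaf1). Over all tested probe sets 13.5% were called, and a list of this size does not tell 0 from that share. Its medians were 0.04, 0.25 and -0.11 in deficient, engrafted and wild-type dura.

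Monocyte and infiltrating macrophage genes were shared risers in 14 of 16 cases, and the other 2, Gpnmb and Thbs1, fell. Both counts were also obtained without the 5 arrays low in Ttr. Plac8, a protein of inflammatory monocytes, rose by 1.05, Vcan, a proteoglycan that monocytes express, by 0.81 ± 0.09 and Itgam, the integrin of myeloid cells, by 0.59 ± 0.08. Itgam ranged over 8.82, 9.45 and 9.85 in stroke dura and 8.57, 8.75 and 9.01 in naive dura, with no overlap within any category. Arg1, the arginase of alternatively activated macrophages, met the definition of a shared gene with 0.10, 0.23 and 2.26 in deficient, engrafted and wild-type dura, and it had the smallest adjusted p of the difference between categories among the genes named here (1.47e-05). Its deficient arrays, 6.20, 6.28 and 6.40 after stroke and 6.17, 6.23 and 6.17 in naive mice, overlapped. The naive wild-type mean of Arg1 was not shown to be above background, so the size of its wild-type rise rests on that low level. Vsig4, a complement receptor of macrophages, rose by 1.49 ± 0.11, with 0.79, 1.76 and 1.92. Its naive deficient and naive engrafted means were not shown to be above background.

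Chemokines and the adhesion molecules of leukocyte entry followed in smaller numbers. Of 27 chemokines 9 rose, 7 of them shared, and 2 fell, against 6 and 1 without the 5 arrays low in Ttr. Cxcl13, a B cell attractant, rose by 1.19 ± 0.16, and Ccl9 and Ccl6, related attractants of myeloid cells, by 0.87 ± 0.11 and 0.79. Ccl2, the main attractant of monocytes, rose by 0.75 ± 0.12 on average, but its differences of 0.08, 0.30 and 1.86 differed between categories (adjusted p = 0.0153). Ccl7 passed on average (0.61 ± 0.12) and was not shared, with -0.07 in deficient dura. Ccl24, an eosinophil attractant of resident macrophages, fell by 0.56 on the log2 scale (SE 0.08). Of 17 genes of leukocyte entry 7 were shared risers and 0 fell. Sele, the selectin that activated endothelium displays, had 7.14, 7.52 and 7.39 in stroke and 7.05, 6.96 and 7.02 in naive deficient dura, and the groups did not overlap in the other categories either. It rose by 0.41 ± 0.05, with similar sizes of 0.34, 0.40 and 0.48 in deficient, engrafted and wild-type dura.

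Proliferation genes were the list with the largest share of shared risers among those measured. Of 31 cell cycle and DNA replication genes 28 were shared risers (7.46% of all tested), 0 fell, and Pcna, Mcm4 and Bub1b did not pass. The list median was 0.70, with 0.36 in deficient, 0.72 in engrafted and 0.99 in wild-type dura. The fit without the Ttr-poor arrays had 25 shared. Cdk1, the kinase that drives entry into mitosis, had 9.04, 8.79 and 8.07 in stroke and 7.77, 7.58 and 7.95 in naive deficient dura. Engrafted dura had 8.74, 9.63 and 9.75 after stroke and 7.90, 7.66 and 8.35 in naive mice, and wild-type dura 10.03, 10.15 and 9.59 after stroke and 7.72, 7.73 and 8.04 in naive mice. All stroke arrays lay above the naive arrays of their category, by the least in deficient dura. The averaged rise was 1.46 ± 0.16 (2.74-fold, adjusted p = 2.32e-05), and the difference between categories did not pass (adjusted p = 0.364). Bub1, a kinase of the spindle checkpoint, rose by 1.54 ± 0.20, with a naive deficient mean that was not shown to be above background. Aurkb, a kinase of chromosome segregation, rose by 1.00 ± 0.11 and Mcm5, a subunit of the replicative helicase, by 0.80. Top2a, the topoisomerase that untangles replicated DNA, rose by 1.45 ± 0.19 with the probe set of higher signal, but its other probe set stood at -0.03 (adjusted p = 0.779). No single member passed in deficient dura, against 11 in engrafted and 27 in wild-type dura. Over all 21640 tested probe sets the risers numbered 27, 190 and 1351. With so few calls in deficient dura, a count of 0 there does not set these genes apart.

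Some sequence elements were more frequent in the promoter windows of the cell cycle list than in all windows. CCAAT, the letters of the CCAAT box, occurred in 21 of 24 windows of the list (87.5%) against 38.4% of all windows, and TTTGAA, the core of the cell cycle homology region, in 12 of 24 against 15.2%. The E2F letters TTNGCGC were found in 6 of 24 against 8.57%. Over all shared risers these shares were 39.0%, 17.6% and 9.94%, near the share of all windows. The list had been assembled from cell cycle genes, many of which are known to carry these elements. Its shares thus describe the list and not the stroke response. The 250 bases before the start of Cdk1 (GRCm38.p6, chr10:69352913-69353162, minus strand) and of Ccnb2, the mitotic cyclin B2 (chr9:70421555-70421804, minus strand), are shown because both hold the pair, with CCAAT and TTTGAA matches of either strand in capitals.
Cdk1: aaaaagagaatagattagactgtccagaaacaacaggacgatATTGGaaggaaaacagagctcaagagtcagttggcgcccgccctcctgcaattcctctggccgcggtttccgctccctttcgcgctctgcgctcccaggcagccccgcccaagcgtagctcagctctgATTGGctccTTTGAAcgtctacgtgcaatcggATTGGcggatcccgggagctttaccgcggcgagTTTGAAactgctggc
Ccnb2: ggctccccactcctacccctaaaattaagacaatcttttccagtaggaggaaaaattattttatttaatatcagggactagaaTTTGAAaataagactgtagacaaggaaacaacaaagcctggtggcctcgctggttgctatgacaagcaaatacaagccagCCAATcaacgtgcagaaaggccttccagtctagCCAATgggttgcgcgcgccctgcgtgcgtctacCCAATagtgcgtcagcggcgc

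Matrix proteases and their inhibitors rose without a member that fell. Of 23 measured genes 14 rose on average and 9 were shared, since Plau, Plaur, Adamts4, Adam12 and Plat had a difference below 0 in deficient dura. With the 2 covariates of neural and choroid plexus genes 10 rose and 6 were shared. Mmp3, a metalloproteinase that degrades matrix and activates other proteases, showed the largest averaged rise of all shared genes. It had 8.21, 7.56 and 7.34 in stroke and 6.76, 6.73 and 6.98 in naive deficient dura. In engrafted dura it had 9.51, 9.84 and 9.59 after stroke and 6.36, 6.81 and 6.70 in naive mice, and in wild type 10.83, 11.09 and 11.12 after stroke and 6.72, 6.91 and 6.79 in naive mice. Naive levels lay between 6.36 and 6.98 in all categories while stroke levels stepped up from deficient to engrafted to wild type. The averaged rise was 2.70 ± 0.10 (6.52-fold, adjusted p = 6.26e-10), and its parts of 0.88, 3.02 and 4.21 differed between categories (adjusted p = 3.27e-05). Timp1, an inhibitor of metalloproteinases, had 12.45, 12.20 and 12.03 in stroke and 11.41, 11.08 and 11.30 in naive deficient dura. Engrafted dura had 12.40, 12.69 and 12.50 after stroke and 11.13, 11.22 and 11.46 in naive mice, and wild-type dura 12.81, 12.98 and 13.11 after stroke and 11.15, 10.87 and 10.86 in naive mice. Every stroke array lay above every naive array. Timp1 passed in each category with 0.97, 1.26 and 2.01 (average 1.41 ± 0.08, adjusted p = 4.12e-08), and the difference between categories missed the threshold (adjusted p = 0.0555).

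**Figure D4:**
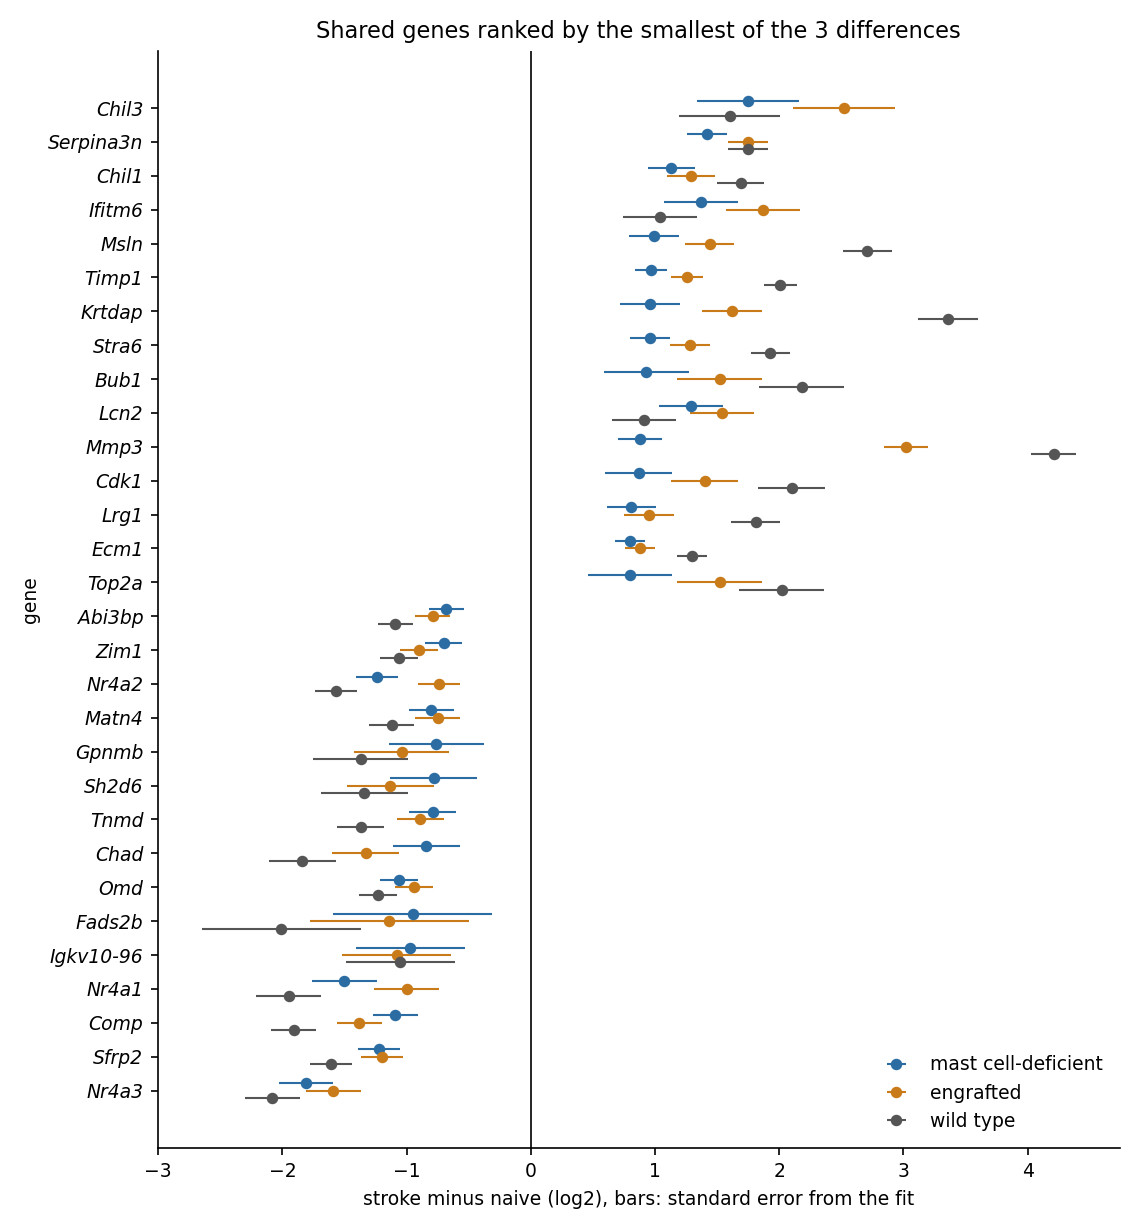
Stroke minus naive difference (log2) in deficient, engrafted and wild-type dura for the 15 shared risers and 15 shared fallers with the largest smallest-of-3 difference, with bars for the standard error of 1 category. Chil3, Serpina3n, Chil1 and Ifitm6 exceed 1 upward and Nr4a3, Sfrp2, Comp and Nr4a1 downward in all 3, while Mmp3 spreads from 0.88 in deficient to 4.21 in wild-type dura.

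Further shared risers encode surface, secreted and actin-binding proteins. Stra6, the membrane receptor for retinol-binding protein, ranged over 11.28, 11.90 and 12.54 in stroke dura and 10.23, 10.48 and 10.88 in naive dura, with every stroke array above every naive array. It passed in each category (0.96, 1.28 and 1.93, average 1.39 ± 0.09). Prg4, the lubricating proteoglycan lubricin, passed in each category with 0.69, 1.20 and 1.84, and these sizes differed (adjusted p = 0.0148). Its 9 stroke arrays, from 11.67 to 13.15, lay above its 9 naive arrays, from 11.02 to 11.45. Msln, the mesothelial surface protein mesothelin, rose by 1.71 ± 0.12 and Krtdap, a secreted protein of differentiating keratinocytes, by 1.98 ± 0.14. The naive means of Krtdap were not shown to be above background in any category. In the mesothelial and arachnoid list, 3 of 14 genes were shared risers and 2 shared fallers, and in the keratinocyte list 3 of 23 and 0, so these genes did not stand for their lists. Ecm1, an extracellular matrix protein (average 1.00 ± 0.07), Igfbp6, a binding protein of insulin-like growth factor II (0.73 ± 0.08), Capg, an actin-capping protein of macrophages (1.02 ± 0.06), and Arpc1b, a subunit of the actin-branching Arp2/3 complex (0.52 ± 0.04), also passed in each category. The other genes that did were Ces2g, a carboxylesterase (1.01 ± 0.08), Vill, a villin-like actin-binding protein (0.71 ± 0.05), Slc52a3, a riboflavin transporter (0.58 ± 0.04), Slc35g1 (0.47 ± 0.04) and Tmem198b (0.32 ± 0.04).

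The fallers were led by the NR4A orphan nuclear receptors, transcription factors that are induced within minutes of a stimulus. Nr4a3 had 7.83, 8.28 and 7.94 in stroke and 9.57, 10.26 and 9.66 in naive deficient dura. Engrafted dura had 7.76, 7.75 and 8.06 after stroke and 9.37, 9.53 and 9.42 in naive mice, and wild-type dura 8.13, 7.33 and 7.99 after stroke and 9.60, 9.83 and 10.27 in naive mice. The highest stroke array, 8.28, lay more than 1 log2 unit below the lowest naive array, 9.37. The averaged difference was -1.83 ± 0.13 (3.55-fold lower, adjusted p = 3.75e-07), with -1.81, -1.59 and -2.08 in deficient, engrafted and wild-type dura. Nr4a1 stood at -1.48 ± 0.15 and Nr4a2 at -1.18 ± 0.10, and Nr4a2 passed in each category as Nr4a3 did. Of 24 immediate early genes 11 were shared fallers (4.87% of all tested) and 1, Ier3, was a shared riser, with a list median of -0.24. The growth-factor response genes Arc (-0.88) and Fosb (-0.60) fell, as did the phosphatase Dusp1 (-0.46). Fos (-0.04, adjusted p = 0.897), Egr1 (-0.22) and Jun (-0.19) did not pass. Fosl1 rose on average (0.36 ± 0.05) with differences of 0.21, -0.05 and 0.91 that differed between categories (adjusted p = 0.0042). Without the 5 arrays low in Ttr 9 of the 24 were shared fallers, and 6 when choroid plexus and neuron scores were covariates.

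Genes of tendon and cartilage matrix fell more often than they rose. Of 20 measured, 10 were shared fallers and 2, Prg4 and Ccn5, shared risers, and 9 and 2 without the 5 arrays low in Ttr. Over all tested probe sets 4.87% were shared fallers and 7.46% shared risers. Comp, a pentameric matrix protein that binds collagen, had 9.77, 10.02 and 9.40 in stroke and 10.82, 10.51 and 11.12 in naive deficient dura. Engrafted dura had 9.15, 9.37 and 9.55 after stroke and 10.54, 10.64 and 11.04 in naive mice, and wild-type dura 8.51, 8.36 and 8.09 after stroke and 10.36, 10.26 and 10.07 in naive mice. The stroke arrays of all categories lay below all naive arrays. The averaged difference was -1.46 ± 0.11 (adjusted p = 5.14e-07). Omd, a small leucine-rich proteoglycan of mineralised tissue (-1.08 ± 0.09), and Fmod, which binds collagen fibrils (-0.81 ± 0.05), also passed in each category. Chad, a cartilage protein that binds integrins (-1.34 ± 0.16), Tnmd, a membrane protein of mature tenocytes (-1.02 ± 0.11), and Matn4, a matrilin (-0.89 ± 0.10), were shared without passing in each. Acan, the main cartilage proteoglycan, and Scx, a transcription factor of tendon progenitors, did not pass (-0.20 and -0.04). Ltbp2, a microfibril protein (-0.72 ± 0.08), and Thbs1, a matricellular protein that activates latent TGF-beta (-0.69 ± 0.08), passed in each category. Among 18 ligands and targets of TGF-beta and activin 3 were shared risers and 3 shared fallers, and Tgfb1 rose by 0.40 ± 0.06.

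Secreted antagonists of Wnt and BMP signals moved both ways. Sfrp2, a secreted Wnt-binding protein of fibroblasts, had 10.60, 10.78 and 10.52 in stroke and 11.87, 11.60 and 12.09 in naive deficient dura. Engrafted dura had 10.29, 10.60 and 10.45 after stroke and 11.77, 11.35 and 11.82 in naive mice, and wild-type dura 9.99, 9.88 and 9.51 after stroke and 11.53, 11.58 and 11.12 in naive mice. Every stroke array lay below every naive array. Sfrp2 fell in each category, with an averaged difference of -1.34 ± 0.10, while its relative Sfrp4 rose in each category, with 0.70, 0.89 and 1.00 (average 0.87 ± 0.06, adjusted p = 3.75e-07). The 9 stroke arrays of Sfrp4 lay between 12.14 and 12.84 and the 9 naive arrays between 11.54 and 11.89. Chrdl1, a BMP antagonist, had an averaged difference of -1.05 ± 0.08. In the list of 18 such antagonists 4 were shared risers and 4 shared fallers, and 3 and 2 without the 5 arrays low in Ttr.

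Clock genes also changed in both directions. Of 17 measured, 7 were shared risers and 5 shared fallers. Dbp, a transcription factor that oscillates as an output of the clock, had 10.14, 10.22 and 9.83 in stroke and 9.11, 9.17 and 9.14 in naive deficient dura. Engrafted dura had 9.73, 10.18 and 10.02 after stroke and 8.82, 8.81 and 9.16 in naive mice, and wild-type dura 9.46, 9.41 and 9.78 after stroke and 9.05, 8.96 and 8.87 in naive mice. All stroke arrays lay above all naive arrays, and the rise passed in each category (average 0.85 ± 0.08, adjusted p = 5.14e-06). Per3 (0.50 ± 0.08), Per2 (0.37) and Nr1d2 (0.37), which repress clock genes, rose with it. Arntl, the activator BMAL1, had an averaged difference of -0.57 ± 0.07 (adjusted p = 5.68e-05), with -0.56, -0.60 and -0.55 in deficient, engrafted and wild-type dura. Nfil3, which opposes Dbp at its binding sites, stood at -0.42 ± 0.07 and Per1 at -0.50 ± 0.10, both lower in stroke arrays without overlap in any category. The labels give no hour of collection, so time of day and stroke cannot be told apart in these genes. On the 13 Ttr-rich arrays alone 4 rose and 4 fell, all shared.

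**Figure D5:**
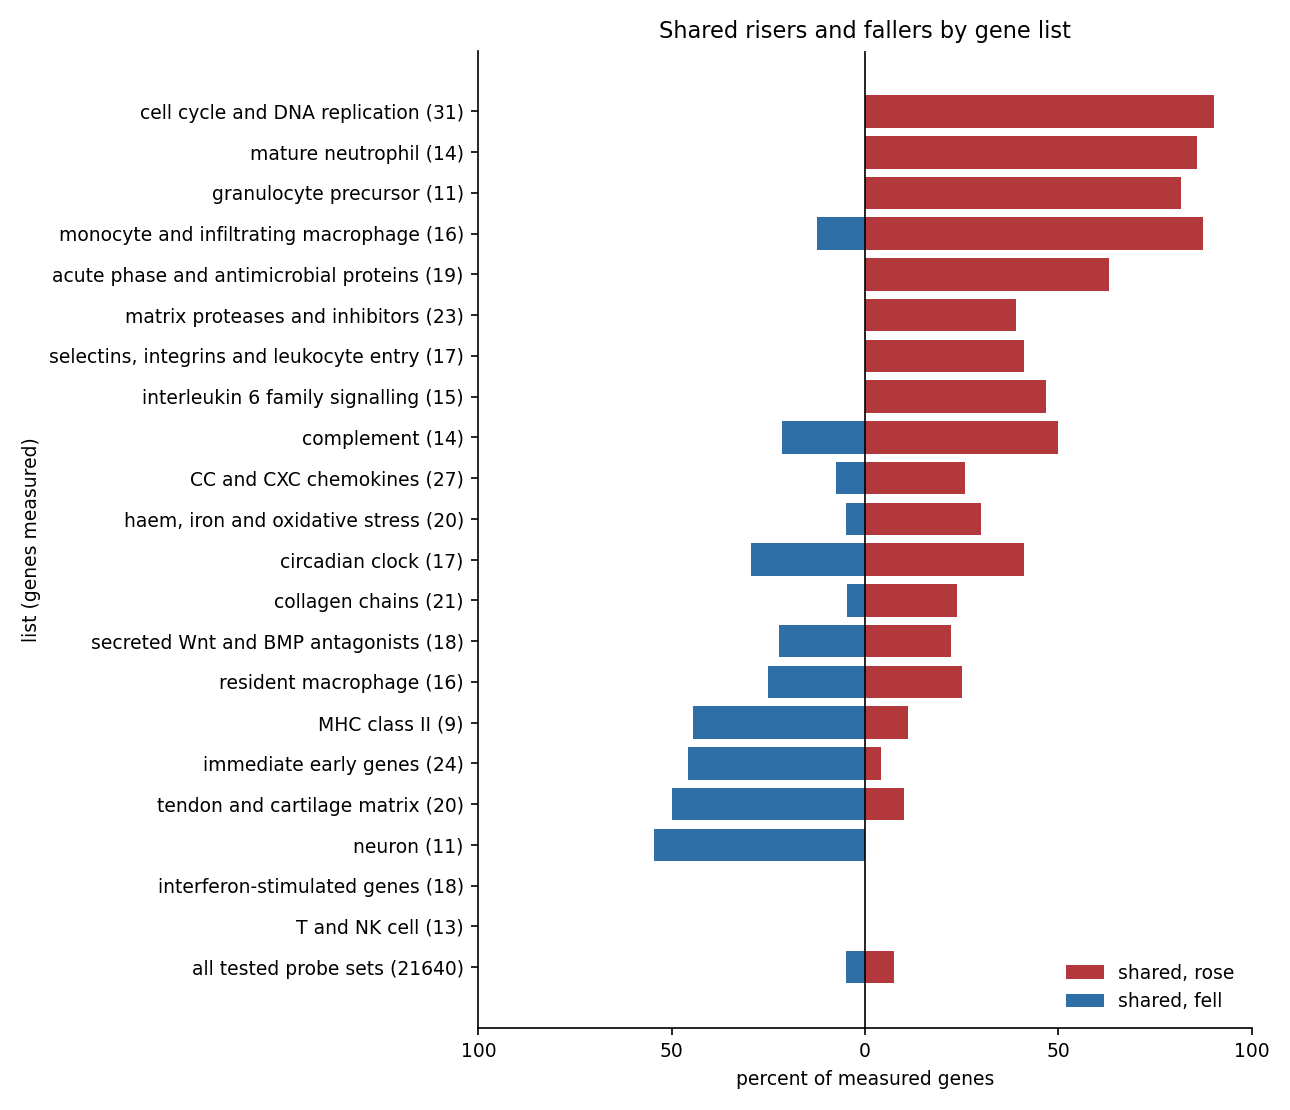
Shared risers (right) and shared fallers (left) as a percent of the measured genes of 21 lists, with the number measured in brackets and all tested probe sets in the bottom row. Cell cycle genes reach 28 of 31 on the right, and all tested probe sets 7.46% and 4.87%. On the left neuron genes reach 6 of 11, tendon and cartilage matrix genes 10 of 20 and immediate early genes 11 of 24.

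Antigen presentation and resident macrophage genes included small shared falls. Of 9 genes of MHC class II, which presents peptides to helper T cells, 4 were shared fallers and 1, the protease Ctss, a shared riser. H2-Aa, the class II alpha chain, ranged over 10.65, 11.10 and 11.51 in stroke dura and 11.33, 11.61 and 11.72 in naive dura, and the groups overlapped. It had an averaged difference of -0.39 ± 0.07 (adjusted p = 0.00245), with -0.08, -0.37 and -0.73, and Cd74, the class II chaperone, of -0.41 ± 0.09. Without the 5 arrays low in Ttr no class II chain passed, with adjusted p of 0.0692 for H2-Aa, 0.0608 for H2-Ab1, 0.119 for H2-Eb1 and 0.13 for Cd74. Cd83, a surface protein that stabilises class II on dendritic cells, passed in each category. Its 9 stroke arrays lay between 8.55 and 8.82 and its 9 naive arrays between 9.13 and 9.59, an averaged difference of -0.65 ± 0.05 (adjusted p = 4.35e-07). Of 16 resident macrophage genes 4 were shared risers, among them Lyve1 (0.55 ± 0.09), the hyaluronan receptor of perivascular macrophages and lymphatics, and 4 shared fallers, among them the lectin Cd209f (-0.72 ± 0.11).

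Marker lists of other cells were set beside these results. Over all tested probe sets 13.5% were called on average, with 7.46% shared risers and 4.87% shared fallers. Neuron genes had 6 shared fallers among 11 and 0 risers, with list medians of -0.28 in deficient, -0.14 in engrafted and -0.77 in wild-type dura, and their mean lay between -0.76 and 0.31 in stroke and between -0.42 and 0.83 in naive arrays. When the scores of choroid plexus and neuron genes were added as covariates 2341 probe sets were shared, 1647 of them among the 2669. Choroid plexus genes had 0 of 9 called, with medians of 0.63, 0.12 and -0.51 in deficient, engrafted and wild-type dura. Platelet genes had 3 shared risers among 6, and 1 without the 5 arrays low in Ttr. T and NK cell genes had 0 of 13 called by limma in the averaged contrast and B cell genes 1 riser that was not shared and 1 shared faller among 10. Mast cell genes had 0 shared members among 15, and Kit, which passed on average (-0.30 ± 0.09, adjusted p = 0.0317), stood at -0.33, 0.01 and -0.57. Where its probes lie relative to the mutations was not used, so the level of Kit does not check the genotype. The part of neural, choroid plexus and blood tissue in the shared response was not tested.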

How the data were processed

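Total RNA of 1 dura per array was hybridised to an Affymetrix mouse gene array. The deposited values are log2 signals per probe set, and the submitters' processing notes name RMA, affy and R 3.0.0 with no further parameters. No scan date or batch is given, and depth on arrays is limited by their number. Of 34760 probe sets, 21640 had exactly 1 symbol and were tested (19937 genes), 1321 had several and 11799 had no annotation. Of the tested, 21553 were found in RefSeq (GRCm38.p6).

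limma 3.58.1 in R 4.3.3 was fitted with 1 mean per group (12 residual and 3.41 prior degrees of freedom). The stroke minus naive contrasts of the 3 categories were averaged with equal weight, and p was adjusted by Benjamini and Hochberg over all tested probe sets at 0.05. Errors are standard errors (SE) of the fit, whose median was 0.055 for the average and 0.096 for 1 category. The difference between categories was a moderated F test of 2 interaction contrasts. For single named genes an exact two-sided permutation of labels within categories gives 8000 arrangements and a smallest p of 0.00025. For the 954 genes with several probe sets the one with the highest mean stands for the gene in lists, while Arpc1b is named by the probe set that passed in each category. Tables were made in Python 3.11.15 with pandas 2.3.3, and plots with matplotlib 3.10.9.

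The comparison and the 42 gene lists (22 of pathways, 20 of cell markers, 629 of 680 entries measured) were chosen with earlier results of these data known. The counts of list members that changed are therefore descriptions and not independent of that choice. Genes were named by rule: 15 risers and 15 fallers with the largest smallest-of-3 difference, 10 largest averages each way, all that passed in each category, up to 4 members per list with the smallest p, the 5 smallest p of the difference between categories, and Il6, Ccl2, Ccl7 and Kit. Other list members named with a value were chosen after their values were seen. Nothing in the labels says whether the mice of a group were littermates, so p values measure the spread between these animals. Alternatives are listed under the processing section at the end.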

Additional observations from a re-analysis of the deposited data

Results flagged for a closer look

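The stroke difference itself differed between categories for 44 probe sets by the moderated F test of limma (2467 had an unadjusted p under 0.05). The count was 29 without stroke deficient array 2, 67 without stroke engrafted array 1, 25 and 28 without naive wild-type array 2 and 3, and 26 without stroke wild-type array 3. Leaving out the Ttr-poor arrays gave 5, compared with 189 under array weights and 67 after a second quantile normalization. In 14 of the 20 named genes among the 44, the rise was the largest in wild type and under 1 in both other categories. These were Arg1 (adjusted p of the difference 1.47e-05), Serpinb9b (0.000959), Prok2 (0.00114), Fosl1 (0.0042), Socs3 (0.00673), Tgm1 (0.00785), Reg3g (0.00878), Has2 (0.00917), Cd44 (0.0109), Ccl2 (0.0153), Vill (0.0153), Capg (0.0269), Slc39a14 (0.0315) and Hmox1 (0.0354). Cd44 and Slc39a14 had negative differences in deficient dura (-0.14 and -0.11) and Fosl1 in engrafted dura (-0.05), so these 3 passed on average without being shared. The other 6 stepped in size from deficient to engrafted to wild-type dura: Mmp3 (3.27e-05), Raet1d (0.00579), Krtdap (0.0109), Prg4 (0.0148) and Msln (0.0354) upward, and Slc6a14 (0.0149) downward with -0.40, -1.29 and -1.85. At least 1 group mean of Arg1, Reg3g, Has2, Raet1d and Krtdap was not shown to be above background. Capg, Prg4 and Vill are the genes that passed both in each category and in this test. Serpinb9b, a relative of the granzyme inhibitor Serpinb9, had 0.28, 0.64 and 2.45 in deficient, engrafted and wild-type dura.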

How the results depend on the processing

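The main count of 2669 shared probe sets stayed within 1.5 times under the additive model (2508), all probe sets (2909, of which 2280 were in the tested set), array weights (3456), covariates (2341), dim probe sets left out (2584), a second quantile normalization (2953) and a trended, robust variance (2670). Without the 5 arrays lowest in Ttr 1913 passed on average and 1659 were shared, 1126 rising and 533 falling; 7 passed in each category and 5 differed between categories. A minimum change of 1.5-fold left 275, of which 255 were shared, 188 rising and 67 falling. Genes that passed in each category numbered 128 with array weights and 46 with the covariates, and those that differed between categories 189 with array weights and 67 after the second normalization. Leaving out 1 array at a time gave 2182 to 2842 averaged calls, 2006 to 2623 shared (1278 to 1616 rising, 728 to 1173 falling), 5 to 27 in each category and 25 to 67 differences between categories. The additive model has no interaction, and so gives neither of the last 2 counts, and the minimum change does not bear on the difference between categories.

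Replicate numbers did not pair the samples: deviations of same-numbered stroke and naive arrays correlated at -0.39 to 0.60 (median 0.01, 9 pairs). With the replicate number as a block 2572 passed and 2387 were shared, 1478 rising and 909 falling, 22 in each category and 41 with a difference. Of 139 named genes, 138 passed, 110 of them in each of the 27 other settings that tested them, and 0 of 3742 values turned sign. The setting without dim probe sets tested 128 of the 139. The calls lost most often were those of Ldha (20 settings), S100b (18), Cldn5 (17), Ebf1 (14), Hilpda (13), Snap25 (10), Kit (10), Col1a2 (9), Nefm (8), Syn1 (7) and Vwf (4). Il6 passed in 5 settings. Of the shared probe sets 1016 passed in no category alone.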

Other observations

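Shared members of further groups stand against 7.46% risers and 4.87% fallers among all tested probe sets. Complement genes had 7 shared risers and 3 shared fallers among 14. The receptors C3ar1 (0.53 ± 0.07) and C5ar1 (0.39 ± 0.07), properdin (Cfp, 0.50 ± 0.08) and C4b (0.47 ± 0.05) rose, together with the 3 chains of C1q (0.22 to 0.25), while the C1 proteases C1ra (-0.38) and C1s1 (-0.42) fell. Without the 5 arrays lowest in Ttr 6 complement genes rose and 0 fell. Genes of haem, iron and oxidative stress had 6 shared risers and 1 shared faller among 20, against 3 and 0 without those 5 arrays. Gsr, the glutathione reductase, rose by 0.39 ± 0.04 and Srxn1, a sulfiredoxin, by 0.35 ± 0.05, and the iron exporter Slc40a1 stood at -0.37 (adjusted p = 0.0165). Hmox1, the haem oxygenase, rose with 0.28, 0.11 and 1.46 in deficient, engrafted and wild-type dura. Of 21 collagen chains 5 were shared risers, among them the basement membrane chains Col4a1 (0.33 ± 0.05), Col4a2 (0.28 ± 0.06) and Col18a1 (0.32 ± 0.05), and 1, the fibril chain Col1a2 (-0.28 ± 0.08), was a shared faller. Provisional matrix genes had 5 shared risers and 3 shared fallers among 19. Glucocorticoid-induced genes had 3 and 3 among 15, against 1 and 2 without the 5 arrays, with Tsc22d3 at -0.38 ± 0.08 and Fkbp5 at 0.51. Hypoxia-induced genes had 1 and 1 among 17, near the share of all tested probe sets, and 0 and 0 without the 5 arrays. The astrocyte list of 9 had a median of -0.17, with -0.47 in wild-type dura, where 4 members fell and 1 rose. Its 1 shared gene was Gfap, an intermediate filament (0.68 ± 0.12), and S100b passed as a fall that was not shared (-0.17 ± 0.05).

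Genes outside these lists were among the largest shared changes. Raet1d, a stress ligand of the NKG2D receptor, rose by 1.61 ± 0.10, with naive engrafted and naive wild-type means that were not shown to be above background. Among fallers were Fads2b, a gene of the fatty acid desaturase family (-1.37 ± 0.37), the amino acid transporter Slc6a14 (-1.18 ± 0.09), Sh2d6 (-1.08 ± 0.20), Zim1, an imprinted zinc finger gene (-0.89 ± 0.09), and Abi3bp, a matrix protein (-0.85 ± 0.08). Igkv10-96, an immunoglobulin light chain segment, stood at -1.03 ± 0.26, and near-identical segments can share its probes. Fads2b, Slc6a14, Sh2d6 and Igkv10-96 overlapped between stroke and naive arrays within at least 1 category. In the remaining marker lists the shared risers and fallers were 0 and 0 of 6 erythroid genes, 1 and 0 of 7 oligodendrocyte and Schwann cell genes, 0 and 0 of 9 pineal gland genes and 1 and 0 of 9 bone cell genes. They were 0 and 0 of 10 skeletal muscle genes, 1 and 0 of 11 endothelium and pericyte genes, 1 and 1 of 13 fibroblast genes, 0 and 0 of 8 melanocyte genes and 0 and 0 of 8 adipocyte genes.

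The circadian promoters held the E-box letters CACGTG in 33.3% of 15 windows, against 8.42% of all windows, 9.19% of shared risers and 10.3% of shared fallers. The cyclic AMP response element TGACGTCA occurred in 5.06% of the windows of shared fallers, against 2.48% of all windows, and the AP-1 letters TGANTCA in 9.69% of those of shared risers, against 6.91%. The STAT letters TTCNNNGAA occurred in 7.94% and 7.17% of shared risers and fallers, against 7.81%. These shares are descriptions and no test was made.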
